A study of Paxillus involutus and Laccaria bicolor with 24 samples.

Results

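The comparison described here set prolonged glucose depletion (t4, day 30) against glucose depletion (t3, day 23) in the ectomycorrhizal fungus Laccaria bicolor, across every gene model whose counts averaged 11 or more in the 12 libraries of this fungus. This rule kept 14352 of the 23130 gene models in the count table, and the comparison itself rested on 6 of the 24 RNA sequencing libraries of the series, 3 at each time point. Mycelium of L. bicolor (Maire) P.D. Orton, strain S238N by the study's methods, was grown for 18 days, starved of nitrogen for 24 h and then given a soil organic matter extract that held glucose. It was harvested on day 2 (t1, active growth), day 13 (t2, after ammonium had run out), day 23 (t3, after glucose had run out) and day 30 (t4, with glucose gone for longer). All 4 groups received the extract, so they differed in time and in the nutrients left, and age of the mycelium cannot be told apart from the length of depletion. The labels give the 3 samples of a time point as biological replicates, and p-values measure the spread between these samples only.

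Ectomycorrhizal fungi live in symbiosis with tree roots and depend on sugar from the host, while they take up nitrogen and phosphorus from soil. L. bicolor, a mushroom-forming basidiomycete, is a model for this symbiosis and has lost most of the enzymes with which wood decayers break down plant cell walls. Fungi that run out of sugar are known to slow ribosome production, to relieve genes that glucose represses and to recycle their own cell contents by autophagy. For L. bicolor, however, the study reports no upregulation of autophagy genes once carbon had run out. The files pair no L. bicolor gene model with a name or function, and 0 of the 23130 identifiers matched the gene table at hand, which is that of another species. The results are therefore ordered by direction, size, level and course rather than by pathway, and 4 gene models are given by their identifier.

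The week from t3 to t4 changed few gene models by a large factor, and more of the large changes were falls than rises. At a false discovery rate of 1%, 874 gene models rose (6.09% of those tested) and 1342 fell (9.35%), together 15.4%. Only 37 rose at least 2-fold (0.258%) and 114 fell at least 2-fold (0.794%). The median log2 fold change was 0.41 among the rising models (range 0.19 to 1.74) and -0.42 among the falling models (range -3.12 to -0.18), against -0.01 over all models tested. Changes of at least 4-fold were found for 6 falling models and 0 rising ones (edgeR quasi-likelihood test, Benjamini-Hochberg adjustment over all models tested). The models nearest to the 2-fold limit had log2 fold changes of 1.008 (rise) and 1.004 (fall) in size inside it and of 0.998 and 0.997 outside it.

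These calls compared counts per 1000000 counted reads (CPM), in which the total of each library is scaled by trimmed means (TMM), and a level so scaled is relative to all other transcripts. In bulk mycelium a lower level from fewer active hyphae and one from less RNA per hypha cannot be told apart. The 3 t4 libraries lay wholly above the 3 t3 libraries in 873 of the 874 rising models and wholly below them in 1332 of the 1342 falling models, where 17.4% and 21.3% of all tested models showed such a separation. The models were called from these same libraries, which favours such a separation, so the counts describe the calls and add no support to them. The excess of falls depended on the scaling: falling models were 60.6% of all calls with TMM and 32.7% with scaling to the counted reads alone, under which 1668 models rose and 809 fell. The counts also depended on single libraries. Without t3 replicate 2, 528 models rose and 837 fell, and without t4 replicate 3, 564 rose and 885 fell.

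**Figure D1:**
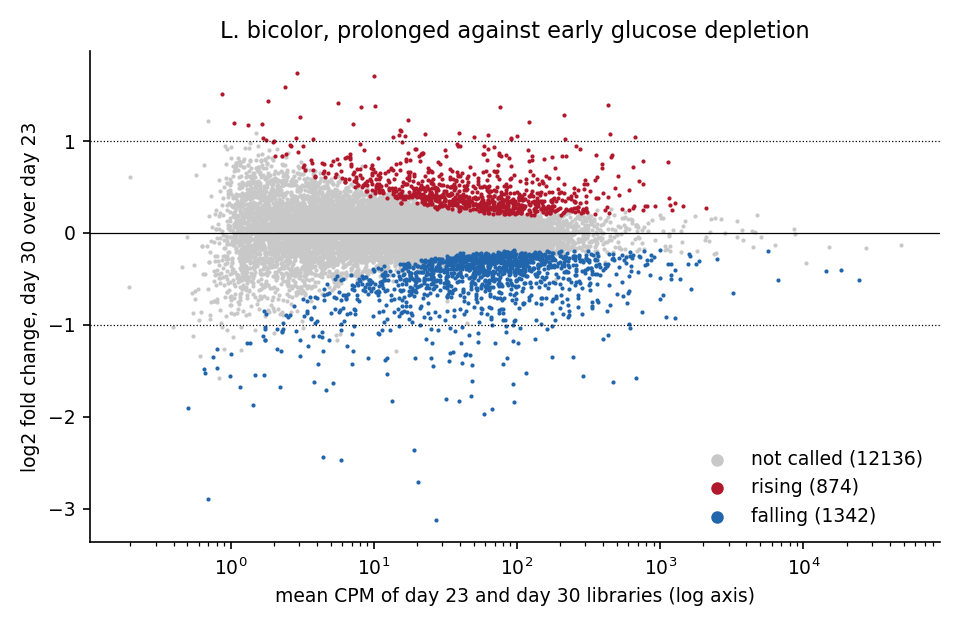
Change from day 23 to day 30 of each of the 14352 tested gene models (vertical axis, log2 fold change) against its mean CPM in the 6 libraries of these days (horizontal log axis). Red points are the 874 rising and blue points the 1342 falling models, grey points were not called, and dotted lines mark 2-fold; the blue points reach further from 0 than the red ones.

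Both groups of called models held a substantial part of the transcripts. The falling models together took 26.2%, 26.9% and 25.1% of all CPM in the 3 t3 libraries and 20.4%, 20.8% and 19.8% in the 3 t4 libraries. The rising models took 7.16%, 6.87% and 7.52% at t3 and 10.2%, 9.98% and 10.6% at t4. The models chosen as falling or rising had to move in this way, so these shares describe how much of the transcript pool was involved. At t1 the falling models had held 31.2% to 31.4% of all CPM and at t2 32.7% to 33.1%, while the rising models had held 4.69% to 4.75% and 4.92% to 5.01%.

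Calls in both directions were more frequent among models with many reads, and falls outnumbered rises at every level. In the 20% of tested models with the highest mean CPM over t3 and t4 (2870 models with at least 66.4 CPM, not corrected for gene length), 12.1% rose and 20.6% fell. In the lowest 20%, 1.04% rose and 1.99% fell. Changes of at least 2-fold were spread differently, with 10 rises and 24 falls in the highest 20% and 12 rises and 37 falls in the lowest. The power to call a change rises with the number of reads, and its part in these shares was not tested. The 10 highest models were taken in each library on its own, so they need not be the same models throughout. They held 19.7% ± 0.33 (SD, n = 3) of all counted reads at t3 and 17.7% ± 0.16 (SD, n = 3) at t4, and the groups did not overlap (exact permutation test, two-sided p = 0.1, the smallest that 3 against 3 allows).

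The rise with the largest fold was that of Lacbi1.eu2.Lbscf0045g01010, a model with few reads. It had 0.846, 1.17 and 1.98 CPM in t3 replicates 1 to 3 and 4.61, 4.36 and 4.57 CPM in t4 replicates 1 to 3, so that each t4 library stood above each t3 library. These levels rested on 9, 13 and 23 reads at t3 and on 61, 49 and 64 reads at t4. The log2 fold change was 1.74 (SE 0.23, adjusted p = 7.54e-06, edgeR). The level at t4 (4.52 ± 0.13 CPM, SD, n = 3) followed a low at t2 and t3, since the model had 3.16 ± 0.43 CPM at t1 and 1.14 ± 0.28 CPM at t2. It fell from t1 to t2 with a log2 fold change of -1.45 (adjusted p = 8.02e-05, edgeR).

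The rise with the largest gain in CPM was that of fgenesh1_kg.LG_1_#_1493_#_1321066:1. It had 884, 726 and 877 CPM in the 3 t3 libraries and 1443, 1286 and 1526 CPM in the 3 t4 libraries, without overlap. The log2 fold change was 0.77 (SE 0.08, adjusted p = 1.62e-07, edgeR), and among the tested models its mean CPM moved from rank 88 to rank 44. This model rose at each step of the experiment, from 286 ± 13.4 CPM at t1 to 431 ± 26.4 at t2, 829 ± 89.2 at t3 and 1418 ± 122 at t4 (SD, n = 3). Its log2 fold changes of the last step and of the step from t1 to t2 differed by 0.18 (SE 0.11, adjusted p = 0.199, edgeR), which did not pass the threshold.

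The fall with the largest fold was that of estExt_Genewise1Plus.C_LG_5_t50291. It had 62.1, 54.3 and 30.1 CPM in t3 replicates 1 to 3 and 6.20, 6.59 and 4.15 CPM in t4 replicates 1 to 3. Replicate 3 was the lowest library at both time points, and every t3 library still stood above every t4 library. The log2 fold change was -3.12 (SE 0.23, adjusted p = 4.98e-09, edgeR), and the rank by mean CPM went from 4034 to 10894. The fall was the last of a series, from 434 ± 17.7 CPM at t1 to 235 ± 45.9 at t2, 48.8 ± 16.7 at t3 and 5.64 ± 1.31 at t4 (SD, n = 3). On the log2 scale the last step differed from the step between t1 and t2 by -2.24 (adjusted p = 1.38e-06, edgeR).

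The largest loss in CPM among called models without overlap was that of Lacbi1.eu2.Lbscf0029g00760, one of the models with the most reads in this fungus. It had 27633, 29419 and 29450 CPM in the 3 t3 libraries and 20177, 20155 and 20307 CPM in the 3 t4 libraries. The t4 libraries lay close together and all below the t3 libraries, with a log2 fold change of -0.51 (SE 0.06, adjusted p = 9.49e-07, edgeR). Between t1 and t2 it had risen from 15527 ± 722 to 29615 ± 1926 CPM (SD, n = 3), and from t2 to t3 its log2 fold change was -0.04 (adjusted p = 0.607, edgeR). The call was lost with the normalization factors that the authors deposited, which correct each library for gene length and GC content, where the log2 fold change of this model was -0.16 (adjusted p = 0.614, edgeR). It was also lost on the authors' regularized log2 values (-0.08, adjusted p = 0.888, limma).

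**Figure D2:**
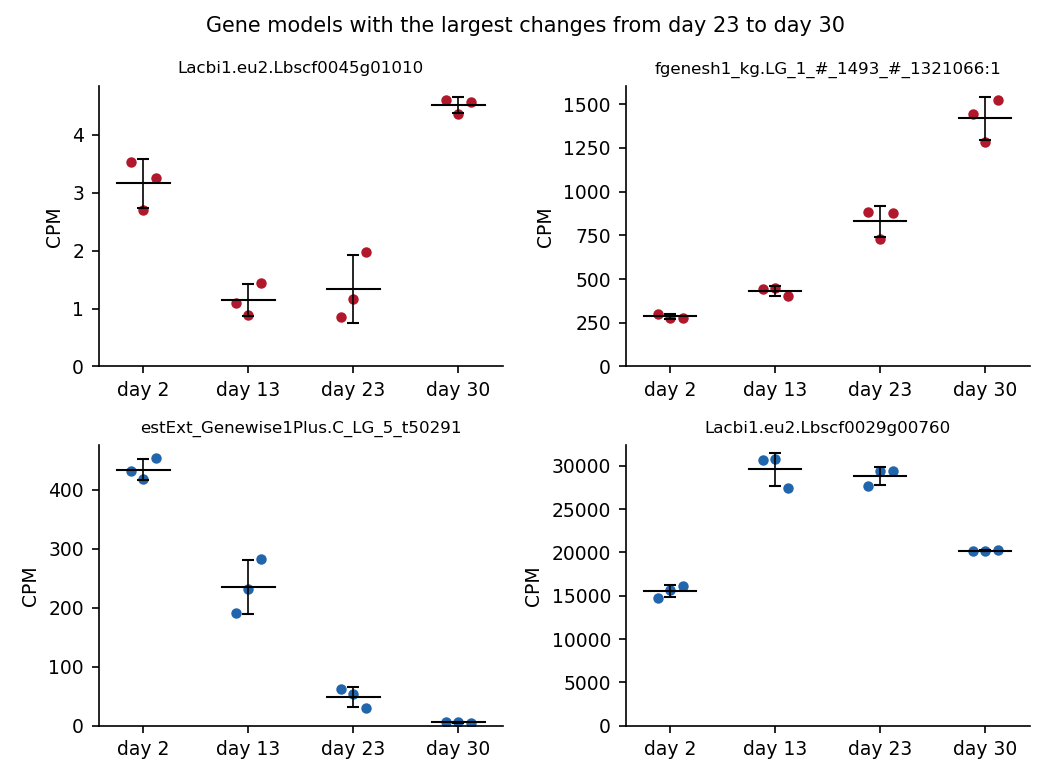
CPM of the 4 named gene models in each of the 12 L. bicolor libraries by day (linear axes from 0). Points are libraries, short lines the means and bars the SD of 3 libraries; Lbscf0045g01010 and fgenesh1_kg.LG_1_#_1493_#_1321066:1 (red) are highest on day 30, and the other two (blue) are highest on day 2 and day 13.

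A few models with very many reads took a large part of the losses in CPM. The 3 largest among called models without overlap brought the mean from 28834 to 20213 CPM, from 20785 to 15673 CPM and from 16275 to 12264 CPM between t3 and t4. Together they made up 25.4% of the CPM lost by the falling models. The falling models lost 69831 CPM in all (6.96% of the mean t3 total) and the rising models gained 24423 CPM (2.44%). TMM scaling does not hold the total CPM equal, and over all tested models 104191 CPM were lost and 43389 gained. The loss and the gain are therefore not on an equal footing. As a mean share of each library's CPM, the falling models went from 26.1% to 20.3% and the rising models from 7.18% to 10.2%. The 10 largest losses summed to -25052 CPM and the 10 largest gains to 3723 CPM.

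By fold, the largest falls ended at very low levels, but some of these models were low before the fall. Of the 10 largest falls by fold (log2 fold changes of 1.87 to 3.12 in size), 8 ended under 10 CPM at t4. Their means at t3 spanned 0.80 to 106 CPM, with a median of 21.1. Of these 10, 3 had been highest at t1, 6 at t2 and 1 at t3. The model with the eighth largest fall had been at 451.6 ± 31.4 CPM at t2 and went from 114, 124 and 79.1 CPM in the 3 t3 libraries to 29.7, 31.5 and 23.4 CPM in the 3 t4 libraries. The 10 largest rises by fold spanned log2 fold changes of 1.36 to 1.74, and 9 of them were highest at t4. Low levels were common among these rises too, with a median of 3.83 CPM at t3 and 5 of the 10 under 10 CPM at t4.

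A pair of unnamed rising models shows what the larger rises looked like at higher levels. The one with the seventh largest fold had 248, 218 and 244 CPM in the 3 t3 libraries and 630, 616 and 620 CPM in the 3 t4 libraries, after 236 ± 17.6 CPM at t1 and 163 ± 22.8 at t2 (SD, n = 3). The one with the third largest gain in CPM went from 9.79 ± 0.14 CPM at t1 to 50.5 ± 2.76 at t2, 557.8 ± 106 at t3 and 958.7 ± 153 at t4 (SD, n = 3). The first was thus lower at t2 than at t1 and back at its t1 level by t3, whereas the mean of the second was higher at each successive time point.

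The models that fell at least 2-fold after t3 were mostly ones that had peaked at t2, when ammonium had run out. Of the 114, 71 (62.3%) had their highest mean at t2, 31 (27.2%) at t1 and 12 (10.5%) at t3. A model that falls from t3 to t4 cannot be highest at t4, so the comparison of t2 with t1, which uses other libraries, is given as well. It is not fully independent, because the count minimum, which reads at t1 or t2 can meet, and the spread were taken over all 12 libraries. In that comparison 70 of the 114 rose (61.4%, Wilson 95% interval 52.2 to 69.8), 21 fell (18.4%) and 23 passed in neither direction, whereas 17.9% of all tested models rose and 18.9% fell. The intervals treat gene models as separate draws and cover counting error only.

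Most of the 70 models that had risen from t1 to t2 went up and came down again. Their median level went from 17.1 CPM at t1 to 93.6 at t2 and back through 33.7 at t3 to 14.1 at t4, and 60 of the 70 were highest at t2. At t4, 48 of the 70 had a mean below that at t1. The 21 models that had fallen from t1 to t2 were all highest at t1 and declined throughout, with medians of 52.1, 29.1, 9.10 and 3.87 CPM from t1 to t4. The remaining 23 had medians of 17.7, 19.0, 9.62 and 4.82 CPM. Of all 114, 92 were below their t1 level at t4.

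Summed over the 114 models, the level was 8934, 10131 and 7880 CPM in the 3 t3 libraries and 3605, 3760 and 3421 CPM in the 3 t4 libraries. The t3 libraries differed more among themselves than the t4 libraries did. The same sum had been between 11665 and 12411 CPM at t1 and between 23086 and 24091 CPM at t2. In summed CPM, where models with many reads weigh most, the larger part of the decline from the peak had thus come about before t3. Per model this did not hold, with a median log2 fold change of -1.07 from t2 to t3 and of -1.28 from t3 to t4. The models were chosen for the size of the latter. Among the 24 of these models that were in the upper 20% by CPM, 19 (79.2%) had risen from t1 to t2 and 2 had fallen, and 19 were highest at t2. The share of the models falling at least 2-fold that had risen from t1 to t2 was 48.3% with the authors' normalization factors and 70.5% without t3 replicate 2.

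**Figure D3:**
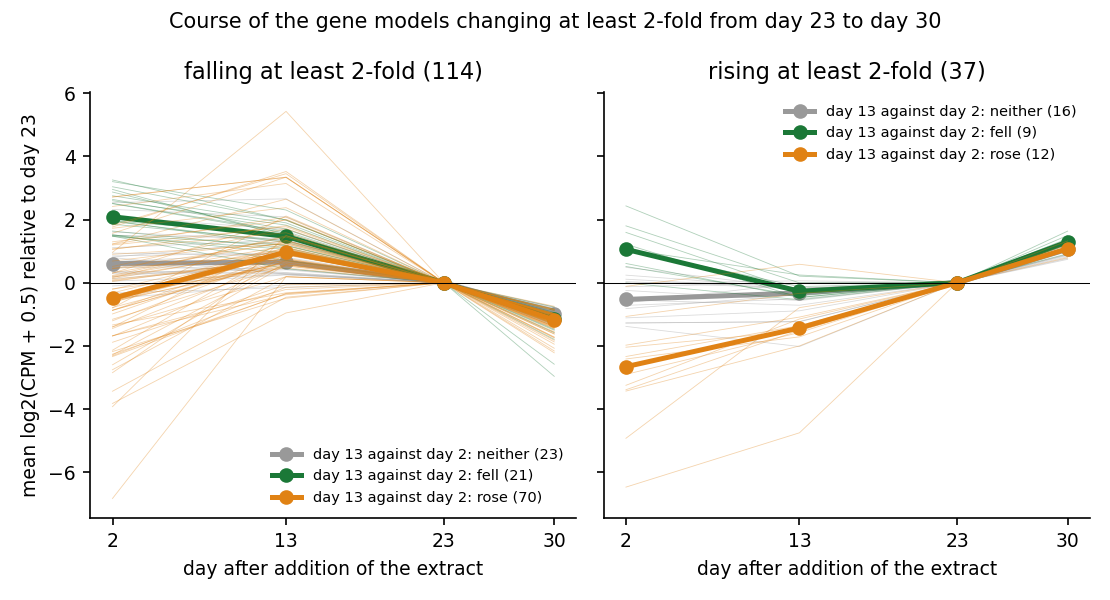
Course of the 114 models falling at least 2-fold (left) and the 37 rising at least 2-fold (right) from day 23 to day 30, as mean log2(CPM + 0.5) relative to day 23 against day. Thin lines are gene models and thick lines the median of those that rose (orange), fell (green) or passed in neither direction (grey) from day 2 to day 13; the 70 orange models on the left peak on day 13.

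The models that rose at least 2-fold were fewer, and nearly all reached their highest level at t4. Of the 37, 34 were highest at t4 and 3 at t1. Their median level went from 3.16 CPM at t1 through 4.59 and 9.57 to 20.3 CPM at t4. The median over all tested models was 20.6 CPM at t3 and 20.3 CPM at t4. In the comparison of t2 with t1, 12 rose, 9 fell and 16 passed in neither direction. The shares were 32.4% (Wilson 95% interval 19.6 to 48.5) for rises and 24.3% (13.4 to 40.1) for falls. Over all tested models 17.9% rose and 18.9% fell. The interval for falls spans the latter share, and that for rises starts just above the former. The 12 that had risen had medians of 2.51, 9.71, 46.1 and 94.3 CPM from t1 to t4, and 11 of them had a higher mean at each successive time point, whereas the 9 that had fallen had medians of 34.5, 9.46, 8.89 and 18.4 CPM, and 6 of those 9 ended above their t1 level. Without t3 replicate 3 the number rising at least 2-fold was 60.

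All 10 of the 37 models that lay in the upper 20% by CPM were highest at t4, and 6 of them had risen from t1 to t2. Their number was 6 without t3 replicate 1 and 17 without t3 replicate 3. Summed over the 37 models, the level was 1547, 1630 and 2027 CPM in the 3 t3 libraries and 3742, 3797 and 3964 CPM in the 3 t4 libraries. T3 replicate 3 had the highest sum of the t3 libraries. The models were chosen for this rise, and in each of the 37 every t4 library stood above every t3 library. The sums of the 2 time points therefore could not overlap.

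Over all rising models, whatever the size of the rise, most were highest at t4, while the falling models were divided between time points. Of the 874 rising models, 797 (91.2%) were highest at t4, 72 at t1 and 5 at t2. Of the 1342 falling models, t1 was the highest time point for 615 (45.8%), t2 for 543 (40.5%) and t3 for 184 (13.7%). The highest level fell on t1 in 33.6% of all tested models, on t2 in 17.7%, on t3 in 15.7% and on t4 in 33.0%. A call fixes the order of t3 and t4, so these shares are given as a description.

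In the comparison of t2 with t1, 281 of the 874 rising models rose (32.2%, Wilson 95% interval 29.1 to 35.3) and 143 fell (16.4%). Of the 1342 falling models, 485 rose (36.1%, 33.6 to 38.7) and 429 fell (29.5% to 34.5%). With TMM scaling the falling models were thus divided between ones that had risen and ones that had fallen by the time ammonium was gone. Neither direction passed in 450 of the rising and 428 of the falling models. Of all tested models 17.9% rose and 18.9% fell, together 36.8%. The 16.4% of rising models that fell (interval 14.1 to 19.0) thus lay near the share of all tested models. The level of a model bears on both calls, and its part in these counts was not tested. The share of falling models that fell from t1 to t2 depended on the processing. It was 17.6% with the authors' normalization factors, 25.2% with these factors in DESeq2 and 19.0% on the regularized log2 values (limma). The first and last of these lie near the 18.9% of all tested models in the TMM fit.

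The last step had the fewest calls of the 3 steps of the experiment. From t1 to t2, over 11 days, 2576 models rose and 2709 fell (17.9% and 18.9% of those tested), 575 and 249 of them at least 2-fold. From t2 to t3, over 10 days, 2674 rose and 2898 fell (18.6% and 20.2%, together 38.8%), 469 and 384 of them at least 2-fold. From t3 to t4, over 7 days, these numbers were 874, 1342, 37 and 114. The median size of the log2 fold change was 0.26, 0.26 and 0.16 at the 3 steps. The steps cover different numbers of days and share libraries, so the counts are set side by side without a test.

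The difference between the last step and the step from t1 to t2, which have no library in common, was tested for each model in the same fit. It passed the threshold for 3918 models (27.3% of those tested). The log2 fold change of the last step was the higher one in 1781 of these (12.4%) and the lower one in 2137 (14.9%). It was lower for estExt_Genewise1Plus.C_LG_5_t50291 and for Lacbi1.eu2.Lbscf0029g00760, by -2.24 and -1.44, and higher for Lacbi1.eu2.Lbscf0045g01010, by 3.19 (SE 0.35, edgeR).

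No tested model was switched on or off in full between these time points. No model tested was at 0 in all 3 libraries of t3 or of t4. Among the models with too few reads for the test, 31 had no read in the 3 t3 libraries and at least 1 in every t4 library, with no more than 9 reads in all, and 15 showed the reverse, with no more than 6. These few reads were given no test. The number of models with any read was 17028 to 17126 per library at t3 and 17157 to 17336 at t4.

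The libraries of t3 were not equally far from those of t4. T3 replicate 3 was the nearest to t4 by the root of the summed squared differences in log2 CPM over all tested models, at 37.4, 37.5 and 40.6 from the 3 t4 libraries, where t3 replicates 1 and 2 were at 42.6 to 49.6. Distances within a time point were 30.8 to 32.5 at t3 and 27.2 to 30.2 at t4, below every distance between t3 and t4. On the line from the mean of t3 (0) to the mean of t4 (1), the t3 libraries stood at -0.04, -0.12 and 0.16 and the t4 libraries at 0.98, 0.93 and 1.09. The distance between the means of t3 and t4 was 35.7, against at most 24.2 for the other divisions of the 6 libraries into groups of 3 (exact permutation test, p = 0.1, the smallest that 3 against 3 allows).

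T3 replicate 3 was also the t3 library nearest to t4 in most called models, in 518 of the 874 rising (59.3%) and 919 of the 1342 falling ones (68.5%). T3 replicate 2 was the nearest in 126 (14.4%) and 102 (7.60%). The same shares were not taken over all tested models, so these counts do not set the called models apart from the rest. Without t3 replicate 3, 897 models rose and 1219 fell. The t1 and t2 libraries stood at -0.65 to -0.69 and at -0.74 to -0.78 on the same line, so t1 and t2 lay close together along it.

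**Figure D4:**
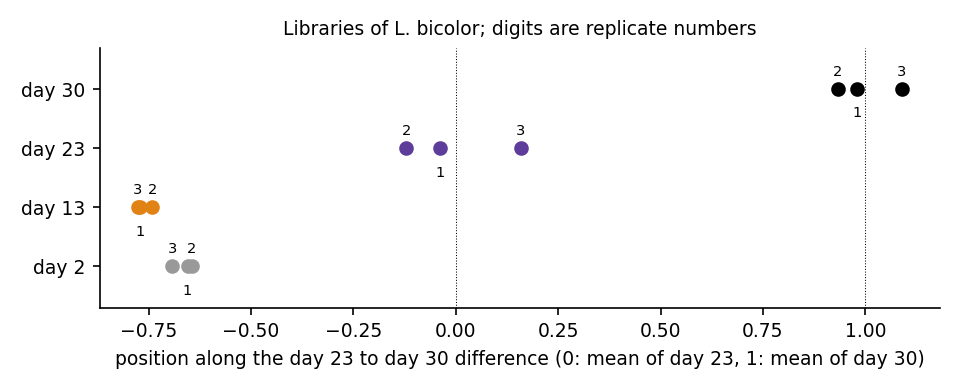
Position of each of the 12 L. bicolor libraries along the difference between day 23 and day 30 (horizontal axis, 0 is the mean of day 23 and 1 the mean of day 30), by day. Points are libraries and digits their replicate numbers; day 23 replicate 3 stands at 0.16, nearer to day 30 than replicates 1 and 2 at -0.04 and -0.12.

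The calls depended on the choice of normalization, as they did on single libraries. Without t3 replicate 2, TMM scaling called 59.5% of the rising and 61.9% of the falling models again. With the authors' factors, 550 models rose and 688 fell, and 420 of the 874 rising models (48.1%) and 592 of the 1342 falling models (44.1%) were called in the same direction. Of the larger changes, 27 of 37 rises and 94 of 114 falls were shared. The factors changed from t3 to t4 by a median of 0.20 on the log2 scale (quartiles 0.12 and 0.28), and they departed from this median by more than 0.2 in 16.9% of tested models, in 67.6% of those rising and in 70.2% of those falling at least 2-fold.

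A smaller core passed at 1% under all 15 alternatives that refit the test. It held 268 of the 874 rising models (30.7%) and 419 of the 1342 falling models (31.2%). Among the changes of at least 2-fold it held 22 of 37 rises and 77 of 114 falls. Named models in this core were Lacbi1.eu2.Lbscf0045g01010, fgenesh1_kg.LG_1_#_1493_#_1321066:1 and estExt_Genewise1Plus.C_LG_5_t50291.

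**Figure D5:**
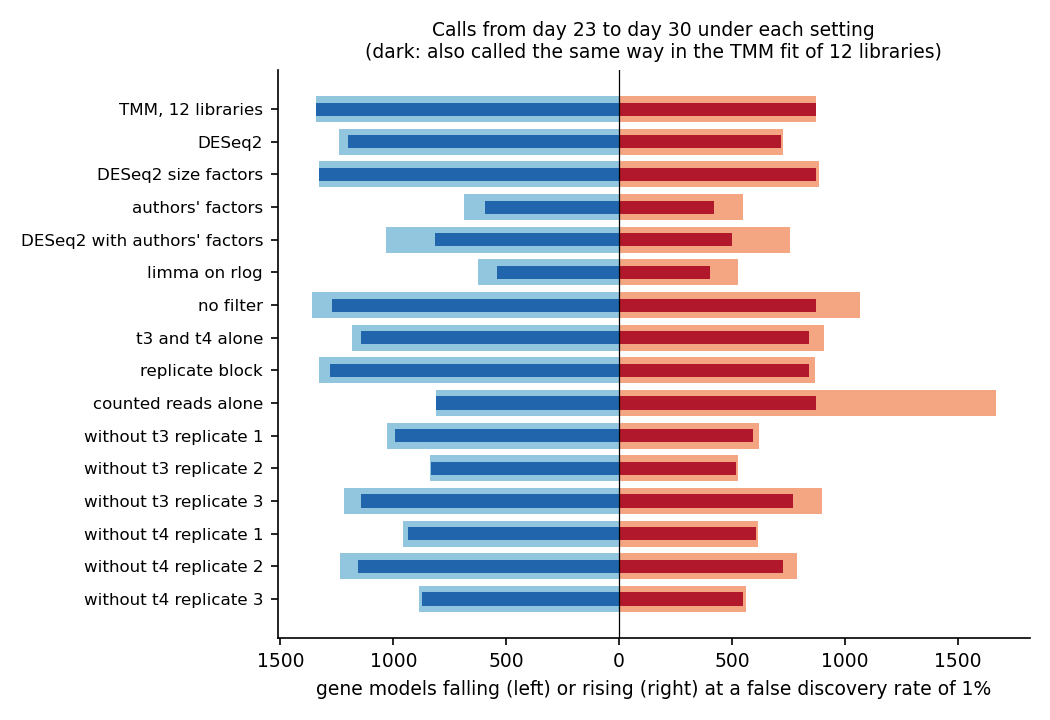
Number of gene models falling (left, blue) and rising (right, red) from day 23 to day 30 at a false discovery rate of 1% under TMM scaling of 12 libraries and under 15 alternatives. Wide pale bars are all calls and narrow dark bars those shared in direction with the TMM calls; with the authors' factors the dark bars reach 592 and 420.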

How the data were processed

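RNA from the mycelium was sequenced as single reads of 50 bp. Per the study's methods and the submitters' processing notes, the authors checked reads with FastQC 0.11.2, removed reads like ribosomal RNA, aligned the rest to the filtered gene models (L. bicolor version 2.0, Joint Genome Institute) with TopHat2 2.0.13, Bowtie2 2.2.3.0 and SAMtools 0.1.19, and counted reads by strand with HTSeq 0.6.1. By the stated settings reads that fit several transcripts were not kept, so near-identical copies can be undercounted. The authors deposited raw counts, a table of normalization factors (each the ratio by which a count is divided, correcting gene length, GC content and depth with EDASeq and DESeq2 1.14.1) and regularized log2 values. The factors and log2 values of Paxillus involutus were not used here, and its counts served only for the share of the 10 highest models given among the other observations.

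Counts of t3 and t4 were compared in edgeR 4.0.16 (R 4.3.3) by a quasi-likelihood fit of all 12 libraries with TMM scaling, a mean count of at least 11 and Benjamini-Hochberg adjustment over the 14352 models. SE is the log2 fold change divided by the root of F. Counted reads were 10620829 to 11651765 per library at t3 and 10598530 to 13187194 at t4, TMM factors 0.993 to 1.003 and 1.061 to 1.062, and the common coefficient of variation was 5.56%. Replicates differed by more than sampling noise (chi-square per gene 1.71 to 3.88). Alternatives were DESeq2 1.42.0, its size factors, the authors' factors in edgeR and DESeq2, limma 3.58.1 on the regularized log2 values, no filter, a rate of 5%, t3 and t4 alone, a replicate block, each library left out in turn and, added after seeing the data, counted reads alone. The test was checked on simulated counts. Named gene models are those with the largest rise and fall by fold and by CPM among called models without overlap. Other models were described by rank, and the members and groups were chosen with earlier results of these data known.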

Additional observations from a re-analysis of the deposited data

Results flagged for a closer look

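Gene models below the mean count of 11 entered no comparison. When they were tested without that filter, 10 of 4489 rose from t3 to t4 and 1 fell at a false discovery rate of 1% (edgeR), and 177 had an unadjusted p under 0.05. The 10 rising models had 5 to 16 reads summed over the 3 t3 libraries and 30 to 64 over the 3 t4 libraries, and the falling one had 21 and 4. None of these 11 is in the authors' factor table, so they could not be tested with those factors.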

How the results depend on the processing

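DESeq2, its size factors, the fit without a filter and the fit of t3 and t4 alone left every count and share within 1.5 times. The authors' factors gave 550 rising and 688 falling models, 71 rising at least 2-fold, and 45 rises and 67 falls of at least 2-fold among abundant models (the upper 20% by CPM), while 17.6% of falling models fell from t1 to t2 and 48.3% of those falling at least 2-fold rose. DESeq2 with these factors gave 85 rises and 175 falls of at least 2-fold, 47 and 73 among abundant models, and shares of 25.2% and 45.1%. Limma on the regularized log2 values, which are shrunken, gave 527 and 626 calls, 12 and 22 of at least 2-fold, and shares of 19.0% and 81.8%. Counted reads alone gave 1668 and 809 calls, 56 rises of at least 2-fold, and 28.1% of rising models that rose from t1 to t2. A rate of 5% gave 1508 and 2037 calls, of which 35.7% of the falling fell from t1 to t2, and the upper 10% in place of 20% held 6 and 12 changes of at least 2-fold. The cause of these differences was not tested.

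Leaving out each library gave 528 to 897 rising and 837 to 1236 falling models, 28 to 60 and 78 to 128 changes of at least 2-fold, 6 to 17 and 17 to 32 of these among abundant models, and 3405 to 3754 differences between steps. The shares ranged from 31.7% to 38.1% for rising models that rose from t1 to t2, from 30.2% to 33.9% for falling models that fell and from 60.7% to 70.5% for models falling at least 2-fold that rose. The replicate numbers share no stated batch. Same-numbered t3 and t4 libraries correlated at 0.02, 0.10 and 0.13 in their deviations, and those with different numbers at -0.12 to 0.02. Whether same-numbered libraries form pairs was not tested, and the main fit did not pair them. With the replicate block 866 models rose and 1328 fell. The log2 fold change ranged from -3.37 to -0.75 for estExt_Genewise1Plus.C_LG_5_t50291, from 0.69 to 1.64 for fgenesh1_kg.LG_1_#_1493_#_1321066:1, from 0.74 to 2.16 for Lacbi1.eu2.Lbscf0045g01010 and from -0.54 to -0.08 for Lacbi1.eu2.Lbscf0029g00760. At this depth models with few reads had wide errors (SE 0.23 for Lacbi1.eu2.Lbscf0045g01010).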

Other observations

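The share of counted reads held by the 10 highest models of each library was also lower at t4 than at t3 in Paxillus involutus, the other fungus of the series. Its t3 and t4 were day 9 and day 13, an interval of 4 days against 7 in L. bicolor. The share was 7.01% ± 0.10 (SD, n = 3) at t3 and 5.64% ± 0.27 (SD, n = 3) at t4 in P. involutus, a change of -1.38 percentage points against -2.00 in L. bicolor. The changes differed by -0.62 points (exact permutation test within each fungus, two-sided p = 0.58). Shuffling the time points within a fungus also breaks the change of that fungus itself. The test therefore cannot decide whether the 2 changes differ, and the unequal intervals limit the comparison further.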
